A study of Rattus norvegicus with 8 samples.

Results

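Glutathione S-transferases (GSTs) were followed in rat thymocytes cultured with or without dexamethasone, a synthetic glucocorticoid. The 10 genes were Gsta2, Gsta3, Gsta4, Gstm1, Gstm2, Gstp1, Gstt1, Gstt2, Mgst1 and Gsto1, chosen by the gene name that the array gives to each probe, with the suffix for predicted genes removed. All 10 genes were on the array, with 12 probes of the 41012 measured, since Gsta2 and Gstt2 have 2 probes each. The family was taken up because Gsta3 was already known to be among the genes with the largest differences on these arrays. Its Dex against Control values are therefore given as a description, and nothing is supported by them.

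Messenger RNA was measured on 8 one-color Agilent whole rat genome arrays, 4 labeled Control and 4 labeled Dex. The thymocytes came from adrenalectomized male Sprague-Dawley rats, whose thymi were combined from 3 rats in each preparation, so adrenalectomy and pooling were common to both groups. Dex cells were incubated with 100 nM dexamethasone for 6 hours, and Control cells were cultured without it. No genetic change is named for either group, and an age was not given in the sources used here. Replicates were numbered 1 to 4 in each group, and nothing in the labels says whether an equal number marks an equal preparation. The study’s methods speak of fewer biological replicates than the labels number, so some arrays of a group may share a preparation. The p-values measure the spread between these arrays, which may be partly technical. A culture is a mixture of cells, in which fewer cells of a type and less RNA per cell cannot be told apart.

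GSTs join the thiol of glutathione to electrophilic compounds, lipid peroxidation products and some signaling lipids, which makes these compounds soluble and ready for export. The soluble enzymes are dimers and are sorted by sequence into classes that include alpha (Gsta), mu (Gstm), pi (Gstp), theta (Gstt) and omega (Gsto). Mgst1 belongs to an unrelated family of membrane proteins, named MAPEG, with the same activity. In liver, many of these genes respond to electrophiles through the transcription factor NRF2 and to aromatic hydrocarbons through the aryl hydrocarbon receptor. Thymocytes are the immature T cells of the thymus and die by apoptosis when exposed to glucocorticoids.

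The gene names are those of the array design and are partly out of date. By RefSeq accession, the probe named Gsta3 on the array measures the transcript now called Gsta1, and the transcript now called Gsta3 is measured by a probe named Yc2, the older name of a GST alpha subunit. The accession of the Gsta4 probe had no match, and the array names are kept below. The following probe sequences, 5′ to 3′, are shown because they fix which alpha transcripts were measured and where they lie. Positions are those of the array files on the rat genome build rn3, and no exon or UTR annotation of that build was used.
Gsta3 (now Gsta1), chr9:20048980-20049039: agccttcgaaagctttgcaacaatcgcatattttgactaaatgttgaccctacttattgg
Yc2 (now Gsta3), chr9:20026833-20028860: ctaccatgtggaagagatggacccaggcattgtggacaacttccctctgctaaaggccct
RGD1562107 (now Gsta3l1), chr9:19973338-19973397: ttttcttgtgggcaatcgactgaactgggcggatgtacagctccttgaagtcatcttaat
Gsta2, probe 1, chr8:83321988-83322047: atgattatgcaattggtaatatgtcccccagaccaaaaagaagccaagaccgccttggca
Gsta2, probe 2, chr8:83318337-83318396: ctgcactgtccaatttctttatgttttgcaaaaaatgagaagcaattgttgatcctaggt
Gsta4, chr8:83191262-83195897: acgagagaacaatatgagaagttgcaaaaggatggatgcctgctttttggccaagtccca
The Yc2 and Gsta4 probes span more of the genome than their 60 bases, so each covers a splice junction. In the best ungapped alignment, the Gsta3 probe matched no other probe described as a GST at more than 23 of its 60 bases. The first Gsta2 probe also carries the accession of Gsta5, and the Gstp1 probe that of its near copy Gstp2, so those transcripts cannot be told apart by them.

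Of the 12 probes, 1 was called in the comparison of Dex with Control, and it was higher in Dex. A call is a limma p-value below 0.05 after Benjamini-Hochberg adjustment over all 41012 probes. Over the whole array 0.778% of probes were called, 231 of them higher in Dex (0.563%) and 88 lower. The called probe was Gsta3, the gene for which the family was taken up, and none of the other 11 probes was called. The mean was higher in Dex for 9 of the 12 probes and lower for 3. An unadjusted limma p below 0.05 was found for 4 probes: Gsta3, both probes of Gstt2, and Gstp1. The shares of all probes for these counts were not computed, so nothing is read from them. The median log2 fold change was 0.25 over the 12 probes and 0.00033 over all probes. The arrays of the groups did not overlap for 2 of the 12 probes, Gsta3 and the second Gstt2 probe, against 9.11% of all probes measured on every array. Other fits called 0 of the 12 with the replicate number as a block (0.198% of all probes) and 0 with slide as a fixed block (0.00244%). The count was 2 with slide as a random block (4.48%), 3 without Dex 1 and Dex 2 (17.4%), and 3 by the signal-to-noise statistic of the study’s methods (6.79%). That last count rests on an unadjusted p of at most 0.01 and a change of at least 1.2-fold, not on an adjusted p. All member probes so called were higher in Dex, and the third by that statistic, after Gsta3 and the second Gstt2 probe, was Gstp1.

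**Figure D1:**
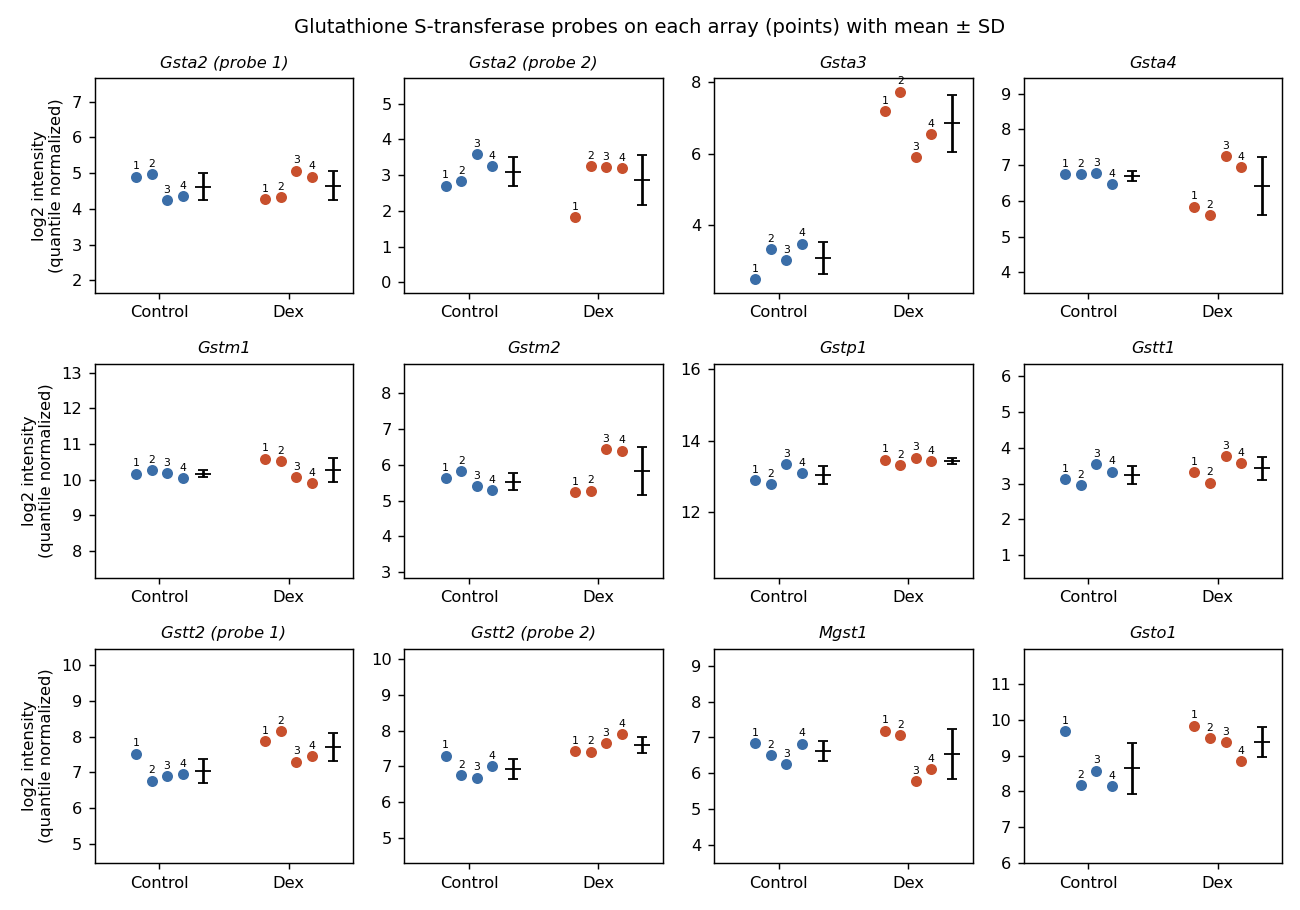
Log2 intensity after quantile normalization for the 12 GST probes, 1 panel each with its own range of equal height, on the 4 Control arrays (blue) and 4 Dex arrays (orange). Small digits are replicate numbers and the bars give the mean ± SD. Gsta3 stands between 2.48 and 3.49 in Control and between 5.91 and 7.74 in Dex, whereas the groups overlap for all others except the second Gstt2 probe.

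The alpha class encodes the GSTs that dominate in liver and reduce lipid hydroperoxides. Gsta3 was at a log2 intensity of 2.48, 3.34, 3.02 and 3.49 on Control arrays 1 to 4, and at 7.20, 7.74, 5.91 and 6.55 on Dex arrays 1 to 4. Every Dex array was above every Control array, and Dex 1 and Dex 2 were above Dex 3 and Dex 4. The means were 3.08 ± 0.44 in Control and 6.85 ± 0.79 in Dex (SD, n = 4 each). The log2 fold change was 3.77 (SE 0.41, 95% interval 2.83 to 4.72), or 13.7-fold, with a limma adjusted p of 0.00728 that is a description for the reason given above. Before normalization, the background-subtracted intensity was between 3.67 and 15.8 units in Control and between 63.3 and 217.0 units in Dex. The Control values were thus close to background, and Control 1 was not well above it.

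The size of the Gsta3 difference depended on how background was handled, but its direction did not. With the normexp correction, which models background and adds an offset, the log2 fold change was 1.21 (limma adjusted p = 0.0264), and with scaling to the 75th percentile it was 3.85. On the slide that held both groups, Dex 3 exceeded Control 1 by 3.43 on the log2 scale, a size that rests on a Control value not well above background, and with slide as a fixed term the adjusted p was 0.366. With the replicate number as a block the probe no longer passed (limma adjusted p = 0.0617). With Dex 1 and Dex 2 left out, the arrays with the fewest probes above background, the log2 fold change was 3.15 (limma adjusted p = 0.0147).

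**Figure D2:**
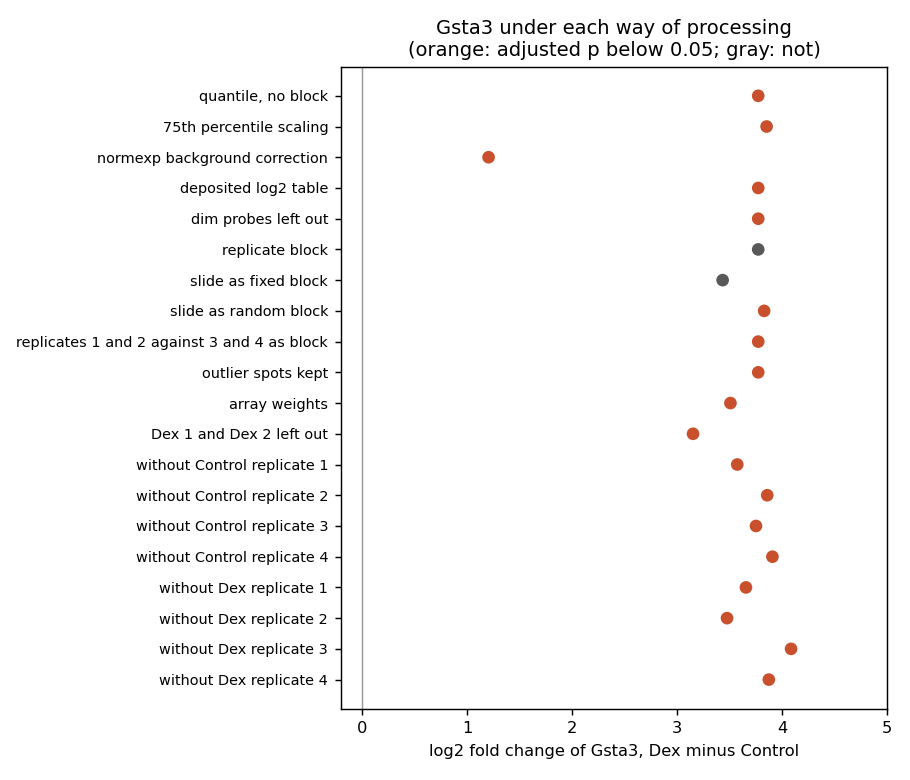
Log2 fold change of Gsta3, Dex minus Control, under each way of processing the arrays, 1 row each. Orange points have an adjusted p below 0.05. All lie above 0, the lowest at 1.21 under normexp, and the 2 gray points are the fits with the replicate number and with slide as a fixed block.

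The other alpha members on the list lie on chromosome 8 and showed no such difference. Gsta2, whose product is a major alpha subunit in rat liver, was at a log2 intensity of 4.90, 4.97, 4.24 and 4.36 in Control and 4.27, 4.32, 5.07 and 4.90 in Dex on its first probe. The groups covered nearly the same range, with a log2 fold change of 0.02 (95% interval -0.59 to 0.64), and Dex 2 was not well above background. Its second probe was not well above background on 3 of the 8 arrays, with a log2 fold change of -0.22 (95% interval -1.07 to 0.63). The sign turned without Dex 1 (0.13) and on the slide of Control 1 and Dex 3 (0.52), where Control 1 was not well above background. Gsta4 encodes the alpha enzyme with a preference for 4-hydroxynonenal, a product of lipid peroxidation. Its log2 intensity was 6.75, 6.75, 6.78 and 6.47 in Control and 5.84, 5.60, 7.26 and 6.94 in Dex. The Dex arrays lay on both sides of the Control arrays, and the log2 fold change was -0.28 (95% interval -1.15 to 0.59), or 0.50 on the slide of Control 1 and Dex 3.

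Probes near Gsta3 on chromosome 9 were then examined, a choice made after their values were seen. Within 250 kb of the Gsta3 probe the array holds 9 probes, of which 4 were called, all higher in Dex, against 0.778% of all probes (0.563% higher). These were RGD1562107, Tmem14a, RGD1566137 and Gsta3 itself, around which the region was drawn. The RGD1562107 probe is described as similar to a class alpha GST. Its log2 intensity was 2.76, 3.90, 2.85 and 2.49 in Control and 6.15, 6.39, 5.10 and 5.12 in Dex. Every Dex array exceeded every Control array, and only 1 of the 4 Control arrays was well above background, so the size of the difference rests on Control values near background. The log2 fold change was 2.69 (SE 0.41, limma adjusted p = 0.0314), or 0.63 under normexp (limma adjusted p = 0.0512), and leaving out single arrays gave adjusted p from 0.0401 to 0.127. With slide as a fixed block it was 2.34 and was not called (limma adjusted p = 0.771).

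Yc2 lies between them, 21.2 kb from the Gsta3 probe. Its log2 intensity was 4.79, 4.46, 4.61 and 4.40 in Control and 5.87, 6.21, 5.22 and 5.50 in Dex. The groups did not overlap and all 8 arrays were well above background, but the log2 fold change of 1.13 did not pass (SE 0.24, limma adjusted p = 0.0970). It was 0.37 under normexp and 0.43 with slide as a fixed block, and neither value passed. It passed with slide as a random block (1.25, limma adjusted p = 0.0094), with replicates 1 and 2 in one block and 3 and 4 in another (0.0383), and without Dex 1 and Dex 2 (0.79, adjusted p = 0.0328). These 3 alpha class probes lie within 75.7 kb, and on each of them Dex 1 and Dex 2 were above Dex 3 and Dex 4. That order was not particular to them. It was also seen on the Tmem14a and RGD1566137 probes and on 48.3% of all probes.

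The remaining called probes of the region do not measure GSTs. Tmem14a encodes a transmembrane protein and lies 52.7 kb from the Gsta3 probe, on the side of Yc2. Its log2 intensity was 9.51, 8.78, 8.62 and 8.95 in Control and 11.6, 11.6, 11.3 and 11.3 in Dex, a log2 fold change of 2.46 (SE 0.22, limma adjusted p = 0.0031). RGD1566137, described as similar to ribosomal protein L10a, lies 52.6 kb away on the other side. It was at 9.66, 9.90, 9.44 and 9.42 in Control and 12.6, 12.6, 12.6 and 12.4 in Dex, a log2 fold change of 2.96 (SE 0.16, limma adjusted p = 0.000216). Both were well above background on all 8 arrays, both passed with the replicate number as a block (limma adjusted p = 0.0373 and 0.0141), and under normexp their log2 fold changes were 2.18 and 2.78. With slide as a fixed block neither passed (limma adjusted p = 0.505 and 0.152), at log2 fold changes of 1.81 and 2.94. The other 4 probes, all more than 100 kb away, had log2 fold changes between 0.30 and 0.70, and none was called.

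**Figure D3:**
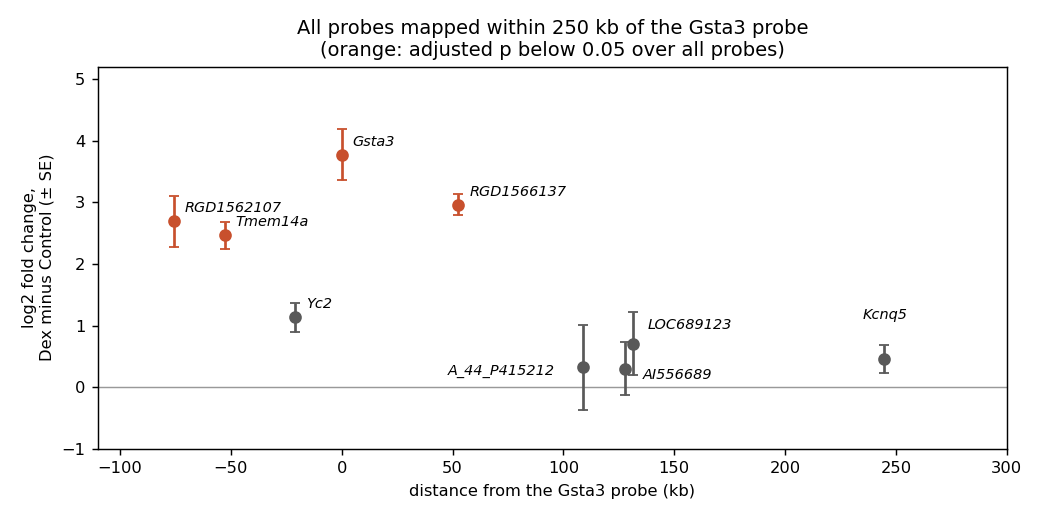
Log2 fold change, Dex minus Control (± SE), of the 9 probes within 250 kb of the Gsta3 probe, against their distance from it in kb. The 4 called probes (orange) and Yc2 lie between -75.6 and 52.6 kb with values from 1.13 to 3.77, and the 4 probes farther out lie between 0.30 and 0.70.

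The mu class genes form a cluster on chromosome 2 and encode enzymes that conjugate epoxides and other electrophiles. Gstm1 was at a log2 intensity of 10.2, 10.3, 10.2 and 10.0 in Control and 10.6, 10.5, 10.1 and 9.91 in Dex. Dex 1 and Dex 2 were above the Control arrays and Dex 4 below them, and the log2 fold change was 0.11 (95% interval -0.34 to 0.56). Gstm2 was at 5.62, 5.81, 5.41 and 5.28 in Control and 5.23, 5.28, 6.45 and 6.40 in Dex. Here Dex 3 and Dex 4 stood above all Control arrays, and Dex 1 and Dex 2 did not. The log2 fold change was 0.31 (95% interval -0.46 to 1.07), or 0.83 on the slide of Control 1 and Dex 3. It ran from 0.10 to 0.51 when single arrays were left out and was 0.17 under normexp. With Dex 1 and Dex 2 left out, the Gstm2 difference was 0.89 and passed (limma adjusted p = 0.0291), in the fit that called 17.4% of all probes.

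Gstp1 encodes the pi class enzyme, which also binds the stress kinase JNK. It was at a log2 intensity of 12.9, 12.8, 13.4 and 13.1 in Control and 13.5, 13.3, 13.5 and 13.4 in Dex. Only Control 3 reached into the range of the Dex arrays. The log2 fold change was 0.41 (SE 0.17, 95% interval 0.02 to 0.79), which did not pass over all probes (limma adjusted p = 0.445). The probe of the near copy Gstp2 was at 15.0, 14.9, 14.9 and 14.9 in Control and 15.3, 15.4, 15.3 and 15.4 in Dex. The groups did not overlap, but this difference of 0.45 (SE 0.13) did not pass either (limma adjusted p = 0.233). It passed under normexp, at 0.42 (limma adjusted p = 0.00389), and with slide as a random block (0.0378).

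The theta class acts on small halogenated compounds and is represented by Gstt1 and Gstt2 on chromosome 20. Gstt1 was not well above background on 3 of the 8 arrays, and its log2 fold change was 0.19 (95% interval -0.31 to 0.69). It was -0.17 under 75th percentile scaling. On the slide of Control 1 and Dex 3 it was 0.65, against a Control value not well above background. On the first probe, Gstt2 was at a log2 intensity of 7.52, 6.76, 6.89 and 6.95 in Control and 7.87, 8.16, 7.30 and 7.45 in Dex. Its second probe was at 7.30, 6.74, 6.68 and 7.01 in Control and 7.42, 7.41, 7.65 and 7.91 in Dex. The probes gave similar log2 fold changes, 0.67 (SE 0.26) and 0.66 (SE 0.20), and the second had no overlap between groups. Neither passed over all probes (limma adjusted p = 0.397 and 0.264). The probes ordered the Dex arrays differently, with Dex 2 highest on the first and Dex 4 highest on the second. The second probe passed with slide as a random block (limma adjusted p = 0.0434) and with Dex 1 and Dex 2 left out (limma adjusted p = 0.0464). On the slide of Control 1 and Dex 3 the differences were -0.22 on the first probe and 0.35 on the second, and under normexp they were 0.43 and 0.38.

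Gsto1 encodes the omega class enzyme, with thioltransferase and dehydroascorbate reductase activity. It was at a log2 intensity of 9.68, 8.18, 8.58 and 8.15 in Control and 9.84, 9.49, 9.37 and 8.84 in Dex. Control 1 lay within the Dex range and the other Control arrays below it. The log2 fold change was 0.74 (SE 0.38, 95% interval -0.12 to 1.61), and on the slide of Control 1 and Dex 3 it was -0.30. A further probe, which the array describes as Gsto1 but names only by accession, was at 5.97, 4.29, 4.54 and 4.73 in Control and 6.34, 6.40, 5.37 and 5.08 in Dex. Its groups overlapped as well, with a log2 fold change of 0.92 (SE 0.45, limma adjusted p = 0.543), or 0.32 under normexp. Mgst1, the membrane enzyme, was at 6.84, 6.51, 6.25 and 6.83 in Control and 7.19, 7.07, 5.78 and 6.12 in Dex. The Dex arrays lay on both sides of the Control arrays, and the log2 fold change was -0.07 (95% interval -0.86 to 0.73). On the slide of Control 1 and Dex 3 it was -1.06.

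**Figure D4:**
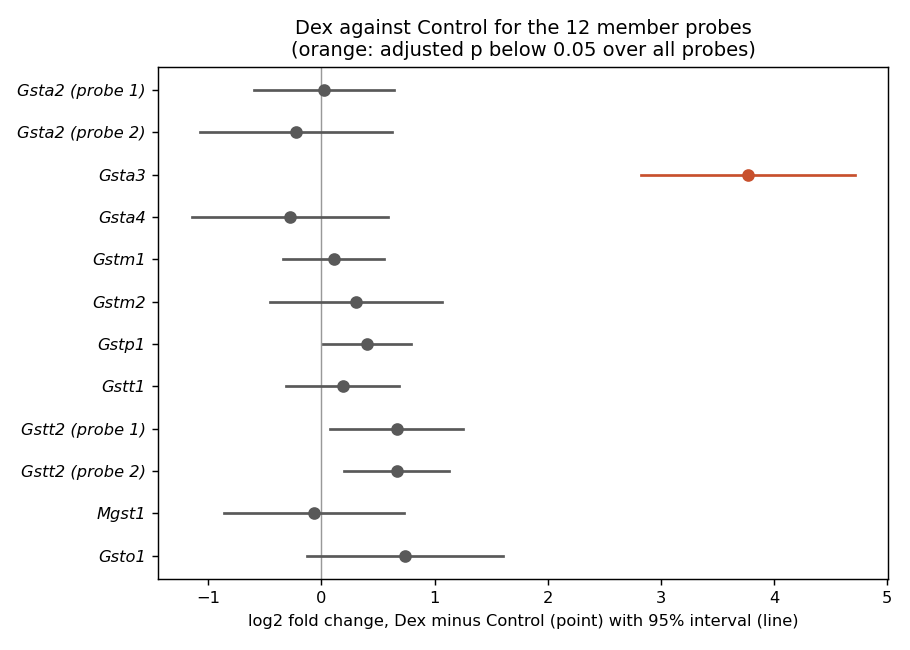
Log2 fold change, Dex minus Control (points), with its 95% interval (lines) for the 12 GST probes. The interval of Gsta3, from 2.83 to 4.72, lies apart from those of the other 11 probes, whose estimates run from -0.28 to 0.74.

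The arrays did not lie evenly over slides. One slide held Control 1 and Dex 3, another the other 3 Control arrays, and the last the other 3 Dex arrays, so that slide and treatment can be told apart only by Control 1 and Dex 3. On that slide the difference had the sign of the overall difference for 7 of the 12 probes and the other sign for 5. Dex 1 and Dex 2 had 26471 and 24908 probes well above background, against 28665 to 34472 on the other 6 arrays. Both were above Dex 3 and Dex 4 for 5 of the 12 probes and below them for 5, against 48.3% and 31.1% of all probes. Of 11 markers of double positive thymocytes measured, none was called, 3 had a higher and 8 a lower mean in Dex. All were well above background on all arrays. Of the 11, 3 had an unadjusted limma p below 0.05, with log2 fold changes of -0.61 for Ptcra, -0.59 for Rag1 and 0.52 for Cd8b. The summed log2 intensity of the 11 was 18.4 to 18.7 in both groups, carried mostly by Cd3d and Cd3g. Of 42 markers of other cell types, 32 had a higher mean in Dex and 1 was called, the endothelial gene Pecam1 (log2 fold change 1.36, limma adjusted p = 0.0208). Pecam1 did not pass when replicate number was blocked (limma adjusted p = 0.108), and its log2 fold change was 0.59 under normexp. The summed log2 intensity of the macrophage and dendritic cell markers was 12.1 to 12.6 in Control and 12.1 to 13.1 in Dex. Of these 10 markers, 6 had a higher mean in Dex, 4 a lower one, and none was called. The log2 fold changes were 2.12 for Mrc1, 0.84 for C1qb and 0.97 for C1qc, the 3 with an unadjusted limma p below 0.05. Under normexp these were 0.68, 0.68 and 0.58. The lower ones were Cd14 (-0.77), Cd163 (-0.24), Adgre1 (-0.15) and Cd68 (-0.12), and the median of the 10 was 0.16. The part of these markers in the GST values was not tested.

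Of 8 genes known to respond to glucocorticoids, 6 were called, all higher in Dex, which checks the labels of the arrays. Of all probes, 0.778% were called and 0.563% were called higher. Tsc22d3, which encodes the glucocorticoid-induced leucine zipper, was at a log2 intensity of 11.1 ± 0.23 in Control and 14.7 ± 0.20 in Dex (SD, n = 4 each). The others were Ddit4, Dusp1, Fkbp5, Klf9 and Nfkbia, with log2 fold changes between 1.41 and 3.73. Nfkbia was not called when replicate number was blocked (limma adjusted p = 0.0673), and Fkbp5, Klf9 and Nfkbia were not called under 75th percentile scaling (0.0528, 0.0657 and 0.0989). With slide as a fixed block none of the 6 was called. Per1 and Sgk1 were not called, at 0.73 and -1.32 (limma adjusted p = 0.270 and 0.0503). Sgk1 went the other way from the called genes, with every Dex array below every Control array.

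Among the 15 of 23 listed other GST and MAPEG genes that were measured, 2 were called, both higher in Dex, against 0.778% of all probes. Of the 15, 9 had a higher and 6 a lower mean in Dex, and the median difference was 0.21. Mgst2 encodes a membrane enzyme that joins glutathione to leukotriene A4. Its log2 intensity was 8.49, 8.09, 7.45 and 7.94 in Control and 10.8, 10.5, 9.86 and 10.2 in Dex. All Dex arrays were above all Control arrays by more than the spread within either group, with a log2 fold change of 2.36 (SE 0.29, limma adjusted p = 0.0119). It was 1.90 under normexp, was short of the threshold under 75th percentile scaling (limma adjusted p = 0.0511) and passed with the replicate number as a block (limma adjusted p = 0.0247). With slide as a fixed block the difference of 1.37 was short of the threshold (limma adjusted p = 0.771), and leaving out single arrays gave adjusted p from 0.0195 to 0.0638. Hpgds, the sigma class GST that makes prostaglandin D2, was at 9.75, 9.19, 9.60 and 9.25 in Control and 10.5, 10.6, 10.6 and 10.3 in Dex. Its log2 fold change was 1.08 (SE 0.18, limma adjusted p = 0.0465), which did not pass with the replicate number as a block (limma adjusted p = 0.155) or when any single array was left out (from 0.0772 to 0.178). It was 0.89 with slide as a fixed block and was not called there (limma adjusted p = 0.771), nor under 75th percentile scaling (0.192) or with array weights (0.0652). Besides the 12 member probes, 19 probes are described as a glutathione transferase, and 9 of these belong to the list above. Of the remaining 10 only RGD1562107 was called, and their median log2 fold change was -0.03.

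Genes around the enzymes were taken from 3 further lists, to be read against the 0.778% of all probes called. Of 22 measured genes of glutathione synthesis, recycling and breakdown (25 listed), none was called by limma, 2 had an unadjusted p below 0.05 and the median log2 fold change was -0.04. The largest differences among bright probes were 0.71 (SE 0.71) for Anpep, a peptidase of the cell surface, and 0.71 (SE 0.22) for Ggt5, which cleaves glutathione conjugates (limma adjusted p = 0.786 and 0.289). The Anpep difference ran from 0.26 to 1.15 when single arrays were left out, was 2.73 with slide as a fixed block, and passed at 1.93 without Dex 1 and Dex 2 (limma adjusted p = 0.0460). The Ggt5 difference was 0.14 under normexp and -0.06 with slide as a fixed block, and it passed at 0.84 with slide as a random block (limma adjusted p = 0.0378). Of 22 measured NRF2 targets and genes of xenobiotic sensing (23 listed), 1 was called, 6 had an unadjusted p below 0.05 and the median was 0.03. This was Bach1, which encodes a repressor that competes with NRF2 for antioxidant response elements. Bach1 was at a log2 intensity of 9.21, 9.44, 9.03 and 9.37 in Control and 10.9, 11.2, 10.6 and 11.3 in Dex, a log2 fold change of 1.75 (SE 0.20, limma adjusted p = 0.00851). It passed with the replicate number as a block (limma adjusted p = 0.0418) but not with slide as a fixed block (0.771). The other 5 with an unadjusted p below 0.05 are named after their values were seen, and none passed. Cyp1a1, the classical target of the aryl hydrocarbon receptor, differed by -3.10 on the log2 scale, the NRF2 target Nqo1 by -1.32 and Mafk, a partner of NRF2, by -0.63 (limma adjusted p = 0.0811, 0.133 and 0.278). The glucuronosyltransferase gene Ugt1a6 differed by 0.73 and Nfe2l2, the gene of NRF2, by 0.43 (0.153 and 0.393). Under normexp Cyp1a1 and Nqo1 were at -1.65 and -0.54, and Cyp1a1 was well above background on 3 of the 4 Dex arrays.

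All 7 exporters of glutathione conjugates had a lower mean in Dex (the median difference was -0.23 on the log2 scale), and none was called by limma (2 with an unadjusted p below 0.05). Abcc3, a pump for glucuronide and glutathione conjugates, was at a log2 intensity of 8.23, 8.62, 8.06 and 8.12 in Control and 7.26, 7.36, 6.08 and 6.20 in Dex. The groups did not overlap, but the difference of -1.53 (SE 0.34) did not pass (limma adjusted p = 0.112). It passed with slide as a random block (limma adjusted p = 0.0221), with replicates 1 and 2 in one block and 3 and 4 in another (0.0194) and, at -2.12, without Dex 1 and Dex 2 (0.0139). The difference was -0.96 under normexp and -2.15 with slide as a fixed block. Abcc2, a related pump, differed by -0.56 (SE 0.19, limma adjusted p = 0.313).

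**Figure D5:**
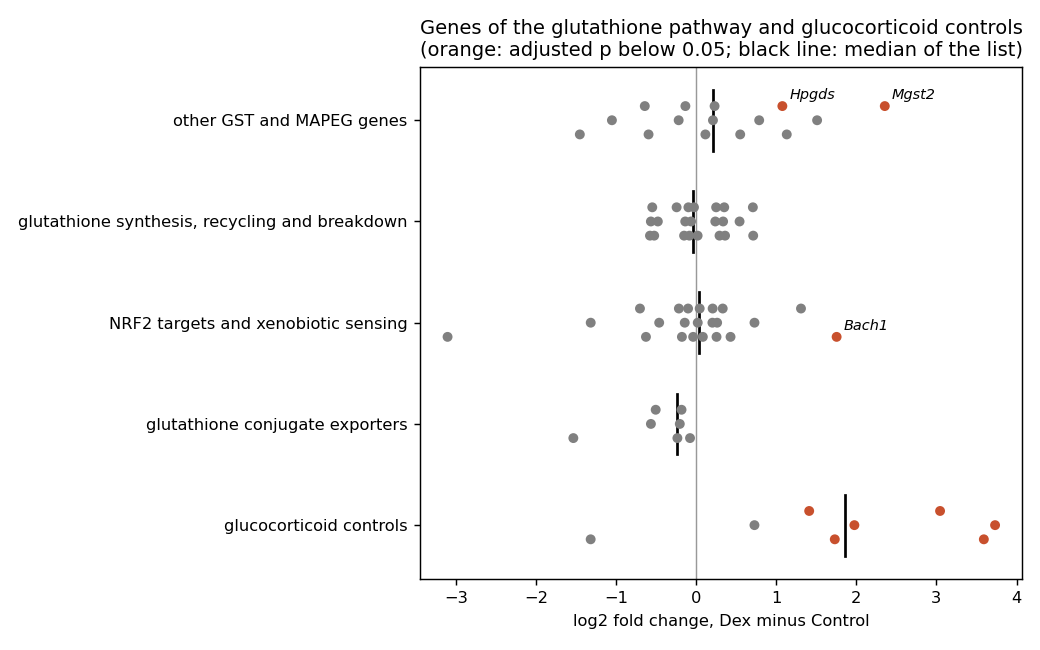
Log2 fold change, Dex minus Control, of each gene in the 4 glutathione lists and in the list of known glucocorticoid responders. Orange points are called and black lines are list medians. Mgst2, Hpgds and Bach1 are the called genes of the glutathione lists, and 6 of the 8 glucocorticoid responders are called.

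The genes whose values over the 8 arrays were most like those of Gsta3, of 12675 probes with a gene name and bright signals, were Prkcsh, mrpl9, Mtmr3, Zfp278 and Rab11fip4, with Pearson correlations from 0.990 to 0.996. Their log2 fold changes ran from 0.47 to 1.96. These correlations carry the Dex against Control difference that Gsta3 was chosen for, and none of the 5 genes was again among the nearest under 75th percentile scaling or normexp.

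Promoter sequence was available from RefSeq (GRCr8) for 8 of the 10 genes, from 250 bases before to 50 after the start of the transcript. The promoter of the gene now called Gsta1 is shown because its probe was the one called. It lies on the minus strand at chr9:31216483-31216782, and capitals mark its only match to the motifs searched, a core of the antioxidant response element (TGACNNNGC).
Gsta1 promoter: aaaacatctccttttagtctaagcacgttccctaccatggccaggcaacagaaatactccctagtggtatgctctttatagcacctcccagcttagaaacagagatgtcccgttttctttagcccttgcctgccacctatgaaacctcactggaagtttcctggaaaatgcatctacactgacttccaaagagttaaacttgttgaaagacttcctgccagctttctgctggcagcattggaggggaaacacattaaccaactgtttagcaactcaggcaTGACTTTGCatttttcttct
Searching both strands, this core was found in 3 of the 8 promoters (Gsta1, Gsta2 and Gstp1) and in 12.1% of all 33469. The core of the xenobiotic response element (GCGTG) was found in 3 of the 8 and in 29.7% of all. The glucocorticoid response element, read as AGAACA and TGTTCT with 3 bases between them, was in none of the 8 and in 0.0149% of all, and AGAACA alone in 2 of the 8 and in 20.7% of all. A match says only that these letters are in the window.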

How the data were processed

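RNA from 4 Control and 4 Dex samples was hybridized to Agilent one-color arrays. Per the file headers, the authors' scans were read with Feature Extraction 9.5.3.1, and probe positions refer to rn3. The deposited scanner files hold background-subtracted intensity for each spot. The deposited table holds log2 values that the authors quantile normalized and summarized by median polish, and it was used as an alternative. The members and lists were chosen with earlier results of these data known.

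From the scanner intensity, spots with outlier flags were left out, log2 values were quantile normalized and the spots of a probe were summarized by median polish, which gave 41012 probes. Dex was compared with Control in limma 3.58.1 (R 4.3.3), a probe being called at a Benjamini-Hochberg adjusted p below 0.05. This replaces the signal-to-noise statistic of the study's methods, which is an alternative here at an unadjusted p of at most 0.01 and at least 1.2-fold. The procedure was tested on simulated data. Well above background is the scanner's own flag. No spot was saturated. The number of arrays, 4 in each group, limits the precision.

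Every member probe is named. Of the lists, called genes are named, or, where none was called, the 2 largest differences among bright probes. Deviations from the group means of arrays with equal replicate numbers correlated (r = 0.397, 0.129, 0.550 and 0.184), which met the criterion for pairing by number, although Control 1 and Dex 2 correlated as much (0.401). The main fit is unpaired, and blocking on replicate number is an alternative whose value is given where it changed a call. Alternatives were 75th percentile scaling, normexp, the deposited table, omission of dim probes, slide as a fixed or random block, a block of replicates 1 and 2 versus 3 and 4, flagged spots kept, array weights and leaving out each array. Leaving out Dex 1 and Dex 2 together, the alternatives for the genes most like Gsta3 and the region around Gsta3 were added after seeing the data.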

Additional observations from a re-analysis of the deposited data

Results flagged for a closer look

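Groups of 4 arrays were examined for a single array far from the rest, in 24 groups of member values, of which chance alone would mark about 1 in 20. For the second Gsta2 probe, Dex 1 was below the other Dex arrays, with a gap of 0.952 of the range of the group, on an array where this probe was not well above background. For Gsta4, Control 4 was below the other Control arrays, with a gap of 0.902 of the range, within a group that spanned 6.47 to 6.78 on the log2 scale.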

How the results depend on the processing

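The member probes called were 1 with the main processing and stayed 1 when any single array was left out (1 to 1). Blocking on the replicate number left 0, slide as a fixed block also 0, and the count was 2 with slide as a random block, 3 by the signal-to-noise statistic (unadjusted p) and 3 with Dex 1 and Dex 2 left out. The log2 fold change of Gsta3 ranged from 1.21 to 4.08 over 19 alternatives. Its adjusted p was below the threshold in 17 of them. These fits share most of their arrays, and 8 of them leave out a single array. For Gsta3, the deposited table and the kept flagged spots gave equal values. With dim probes omitted, Gsta3 was kept only because all Dex arrays were well above background. The 17 are thus not separate evidence for the difference. Over all probes, 319 calls became 166 with 75th percentile scaling, 915 with normexp, 562 without dim probes, 81 with the replicate block, 1 with slide as a fixed block, 1838 with slide as a random block, 670 when replicates 1 and 2 formed one block and 3 and 4 another, 7143 without Dex 1 and Dex 2, 2784 by signal to noise and 96 to 249 when single arrays were left out. The estimated correlation within slides was -0.24, so the random block treated arrays of a slide as less alike than others. Of the 66 measured genes of the 4 glutathione lists, 3 were called, with 0.778% of all probes called in that fit. The count was 1 with 75th percentile scaling, 0 with slide as a fixed block (0.00244% of all probes) and 10 with slide as a random block (4.48%). It was 6 with the block of replicate sets, 13 by signal to noise (6.79%) and 17 without Dex 1 and Dex 2 (17.4%). When single arrays were left out it was 1 to 3. These counts are to be read beside those over all probes. Of the 5 genes most like Gsta3, 0 were again nearest under 75th percentile scaling, 0 under normexp and 1 to 4 when single arrays were left out. The cause of these changes was not tested. Gsta3, RGD1562107, Gstt1 and both Gsta2 probes had arrays not well above background. Yc2 and Ggt5 were well above it on all arrays, and they too had smaller fold changes under normexp, 0.37 and 0.14.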
